A study of Rattus norvegicus with 14 samples.

Results

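The arrays described here set small intestine perfused with HG against small intestine perfused with HF for 20 min, and 3 further arrays carried 1 RNA in both channels. They are 7 of the 14 arrays of the series and were chosen by title: arrays 7 to 10 are the 20 min pairs, and arrays 11 to 13 are the same-RNA arrays. All 4952 probes were used, which gave 4682 features after probes of 1 gene were averaged. The labels leave HG and HF unexplained, and they are read here as high glucose and high fructose, as known of this study. The animals were rats of a strain not given in the sources used here, and no genotype or transgene is named. The labels put the age of the 4 h animals at 20 days and write 20 with no unit for the 20 min and same-RNA arrays. Each 20 min array held a perfused HG sample in channel 1 and the HF sample of the same number in channel 2, both total RNA. The same-RNA arrays held 1HG, 3HG and 3HF, all from intestine perfused for 4 h, so the control arrays differ from the 20 min arrays in time as well. Arrays of intestine perfused with neither sugar were not analysed here, so a ratio compares HF and HG with each other alone. The labels do not say whether the 4 pairs came from separate animals. The p-values therefore measure a spread between arrays, and it is pooled over these 7 arrays and 5 arrays at 4 h that share the fit.

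Fructose enters the enterocyte through the apical transporter GLUT5 (Slc2a5), glucose enters through SGLT1 (Slc5a1), and both can leave through GLUT2 (Slc2a2). Within minutes of a stimulus many cells transcribe immediate early genes, such as the Fos, Jun, Egr, Nr4a and Klf families, without first making new protein. Genes of feedback inhibitors and secreted factors follow. On a 2-colour array a probe can favour 1 dye whatever the RNA, and arrays with the same RNA in both channels measure that preference. The values are log ratios, taken as log2, with each array centred on its median. The direction of the ratio is not stated. Positive is likely the HF side, because Slc2a5, which fructose is known to induce, averaged 1.65 on the 4 h arrays. No gene anchors the direction at 20 min, so signs are given as positive and negative.

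Promoters of a few genes discussed below show the elements through which early genes are classically switched on. RefSeq promoters (GRCr8, the 250 bases before the start, 5′ to 3′ on the gene's strand) were matched to 63 of the 80 early-response genes measured. Capitals mark a CArG box (CC, any 6 A or T bases, GG), which serum response factor binds, in Zfp36 and Klf6, and a cAMP response element (TGACGTCA) in Dusp1. Hspbp1 is shown because it passed the test below, and it holds neither of these nor a GAANNTTC heat shock element.
Zfp36 chr1:92799109-92799358 (-): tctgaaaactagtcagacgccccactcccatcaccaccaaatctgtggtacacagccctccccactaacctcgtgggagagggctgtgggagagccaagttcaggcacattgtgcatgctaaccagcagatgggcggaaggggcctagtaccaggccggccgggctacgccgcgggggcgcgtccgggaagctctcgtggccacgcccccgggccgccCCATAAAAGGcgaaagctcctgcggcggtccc
Klf6 chr17:69458479-69458728 (-): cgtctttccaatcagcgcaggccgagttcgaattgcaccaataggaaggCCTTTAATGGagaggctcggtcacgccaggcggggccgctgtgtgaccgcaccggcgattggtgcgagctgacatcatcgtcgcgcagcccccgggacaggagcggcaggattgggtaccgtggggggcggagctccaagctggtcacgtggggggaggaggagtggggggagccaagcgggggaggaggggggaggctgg
Dusp1 chr10:17184603-17184852 (+): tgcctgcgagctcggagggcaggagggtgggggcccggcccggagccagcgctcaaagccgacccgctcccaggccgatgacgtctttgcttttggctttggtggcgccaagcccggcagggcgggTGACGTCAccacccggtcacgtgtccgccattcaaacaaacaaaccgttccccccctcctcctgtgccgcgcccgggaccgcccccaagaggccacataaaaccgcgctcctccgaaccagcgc
Hspbp1 chr1:78194168-78194417 (+): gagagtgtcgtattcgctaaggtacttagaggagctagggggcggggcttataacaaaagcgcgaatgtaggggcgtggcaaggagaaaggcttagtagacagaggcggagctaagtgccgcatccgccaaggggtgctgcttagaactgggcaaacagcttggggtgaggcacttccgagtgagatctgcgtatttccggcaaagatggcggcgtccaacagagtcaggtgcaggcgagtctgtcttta
Searched on both strands, the CArG box was in 5 of the 63 early promoters (7.94%) and in 1.5% of all 27457 promoters of this length. The cAMP response element was in 4 of the 63 (6.35%) and in 1.7% of all. The heat shock element was in 8 of 18 matched promoters of the heat shock list (44.4%) and in 7.02% of all, and a full match to it cannot be a full match to either other motif. These matches describe the sequence and say nothing of whether a factor bound.

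Most of the large ratios seen at 20 min were also present on the same-RNA arrays, where no difference between RNAs can exist. Cpq, a secreted carboxypeptidase, read -1.61, -1.42, -1.71 and -1.52 on the 4 arrays at 20 min. With the same RNA in both channels it read -1.76 (1HG), -1.62 (3HG) and -1.79 (3HF). The ranges overlapped, and the mean difference was 0.16 (SE 0.17). Foxj1, a transcription factor of ciliated cells, lay between 1.67 and 1.75 at 20 min and between 0.92 and 1.77 on the same-RNA arrays. Fgf18, a secreted growth factor, read -1.62, -2.0, -1.77 and -1.61 at 20 min and -1.18, -0.91 and -1.42 with the same RNA. Its ranges did not overlap, although every array was negative. Against 0, 384 features were called at 20 min (8.2% of 4682), 204 positive (4.36%) and 180 negative (3.84%), by limma at a Benjamini-Hochberg adjusted p below 0.05. By the same rule the same-RNA arrays called 170 features (3.63%). Both sets held 123 features, 32% of the 20 min calls and 72.4% of the same-RNA calls, and all 123 had the same sign in both. Of the 384, 366 (95.3%) had a same-RNA mean of the same sign, against 64.4% of all features. The mean of the 4 h arrays had the same sign for 93% of the 384, against 61.3% of all features.

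**Figure D1:**
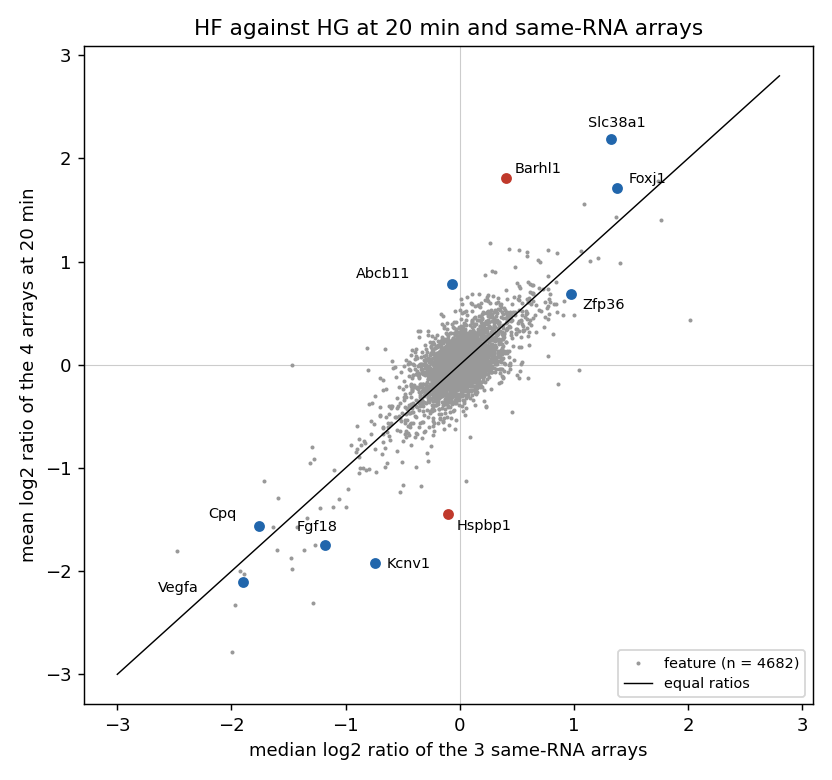
Mean log2 ratio of the 4 arrays at 20 min (vertical) against the median log2 ratio of the 3 same-RNA arrays (horizontal), 1 point for each of 4682 features; the line marks equal ratios, red marks the 2 features called in the difference and blue marks other genes named in the text. Most features with a large ratio at 20 min, such as Cpq (-1.56) and Foxj1 (1.71), lie near the line, and Barhl1 (1.81) and Hspbp1 (-1.45) lie away from it.

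The 20 min mean lay beyond 1 for 53 features, 18 positive and 35 negative. For 52 of these (98.1%) the same-RNA mean had the same sign, and for 34 it was beyond 1 as well. Subtracting the same-RNA mean brought 52 of the 53 closer to 0, which largely follows from the shared sign, and left 6 beyond 1. The median size over the 53 was 1.39 at 20 min, 1.17 with the same RNA and 0.324 after subtraction.

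The genes named next have the smallest p against 0 on the same-RNA arrays or at 20 min. Zfp36 encodes tristetraprolin, which speeds the decay of AU-rich messages and is itself an immediate early gene. It read 0.56, 0.74, 0.60 and 0.85 at 20 min, which alone would pass against 0 (adjusted p = 0.00134, limma). With the same RNA it read 0.97, 1.31 and 0.96, above every array at 20 min. Vegfa, the angiogenic growth factor, read -1.58, -1.98, -2.27 and -2.59 at 20 min and -1.90, -1.54 and -2.01 with the same RNA. It has several probes that disagree: probe 305 averaged -3.84 at 20 min and -3.67 with the same RNA, while probe 3174 averaged -0.37 and 0.03. Dlx1, a homeobox factor, averaged -1.29 at 20 min and -1.58 with the same RNA. For Bmp7, a bone morphogenetic protein, the means were -0.80 and -1.45, and for Galp, a galanin-like peptide, they were -1.39 and -1.07. On the positive side Klrk1, the NKG2D receptor of lymphocytes, averaged 1.01 at 20 min and 0.77 with the same RNA. Kidins220, a scaffold of neurotrophin signalling, averaged 1.00 and 1.19. Bspry (0.62 and 0.88), Rabac1 (0.55 and 0.71) and Pde4dip (0.74 and 0.76), a phosphodiesterase-binding protein, were alike. Among those with the smallest p at 20 min, Slc38a1, a glutamine transporter, averaged 2.19 and 1.19, Trip10 1.09 and 0.86, and Ntm, a neural adhesion molecule, -1.75 and -1.41. Slc38a1 also split at 20 min, with 1.62 and 1.68 on replicates 1 and 3 and 2.71 and 2.75 on replicates 2 and 4.

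**Figure D2:**
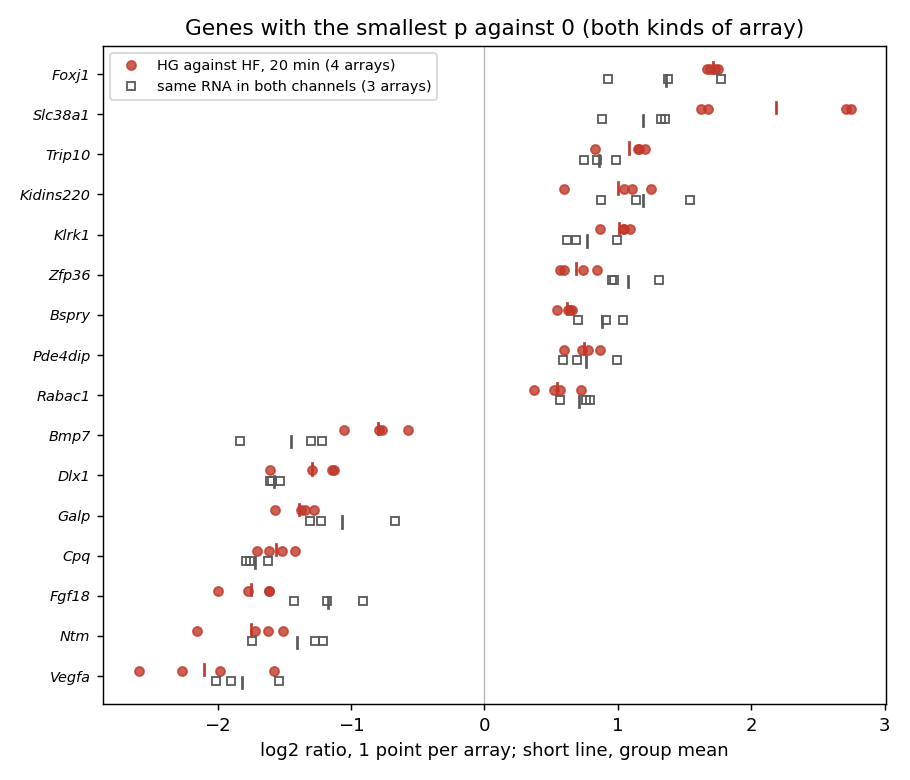
Log2 ratio of 16 of the 18 genes with the smallest p against 0 at 20 min or on the same-RNA arrays (Barhl1 and Hspbp1, the other members, are in the plot of genes by the difference); filled red circles are the 4 arrays at 20 min, open squares the 3 same-RNA arrays, and short lines the group means. All 7 values of each gene shown lie on the same side of 0, as for Cpq (-1.42 to -1.79). Within the group that gave the small p this follows from the choice of genes. Hspbp1, not shown, read 0.18 on 3HG.

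Across the 4682 features the arrays at 20 min correlated with each other at a median Pearson r of 0.5 (range 0.42 to 0.585). Their median r with the same-RNA array 3HF was 0.56, and 3 of the 4 had a higher r with 3HF than with any other 20 min array. By Spearman rank this held for 2 of the 4. With 3HG the median r was 0.429. With 1HG it was 0.0878, and 0.457 over probe numbers above 750 and up to 4500. These correlations share probes and their dye preference. Where 191 genes had more than 1 probe, the mean ratio of one probe and that of another correlated at r = -0.0191 on the same-RNA arrays and 0.141 at 20 min. For the 20 min mean minus the same-RNA mean, r was 0.0496, and -0.0486 without 1HG (Spearman -0.128). Probes of 1 gene thus shared little of their difference.

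**Figure D3:**
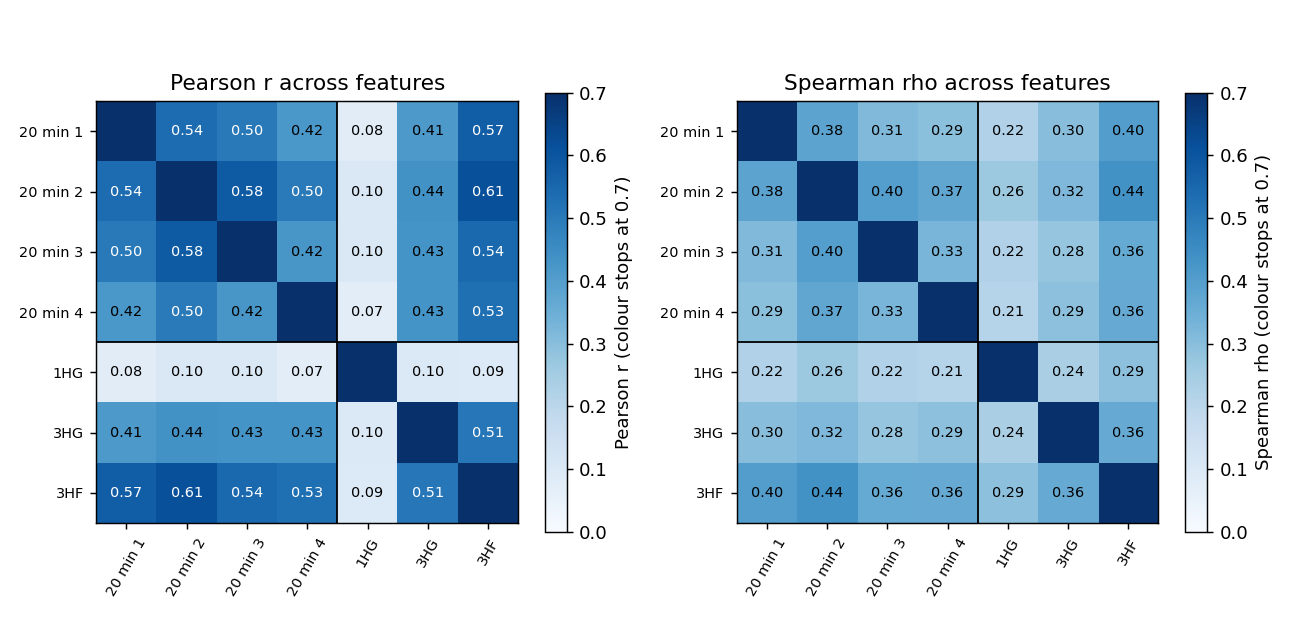
Correlation across 4682 features between the 4 arrays at 20 min and the 3 same-RNA arrays, Pearson r on the left and Spearman rank correlation on the right; darker blue is higher, and the dark diagonal is each array with itself. The 3HF column is as high as the 20 min block (median Pearson r 0.56 against 0.5), and the 1HG column is low on the Pearson scale (0.0878).

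Array 1HG stands apart, and the 20 min arrays hold listed zeros. The SD of 1HG over probes was 1.39, against 0.303 to 0.352 on the other 6 arrays. Its centred values ran from -12.8 to 18.3, and a ratio of unprocessed 16-bit signals of at least 1 cannot exceed 16 on the log2 scale. Whether the signals were processed first, and the log base, are not given. Of its 228 values beyond 2, 149 sat at probe numbers up to 750, 78 above 4500 and 1 in between. For 301 features 1HG lay over 1 from both 3HG and 3HF, which widens their intervals and makes a call harder. The table lists 274 values at exactly 0 on the 20 min arrays (37, 53, 61 and 123 on replicates 1 to 4) and 0 such values on the other 10 arrays. How these zeros arose is not known, and since only the 20 min arrays hold them they cannot be told apart from the group. With the zeros taken as missing, an alternative chosen after seeing the data, the 2 genes called below were called again and no other feature was (lowest adjusted p = 0.0258, limma). Where leaving out 1HG moved a difference printed below by over 1.5 times, the value without it stands beside it.

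After the same-RNA mean was subtracted, 2 features were called, Barhl1 on the positive and Hspbp1 on the negative side (0.0427% of 4682, with 0.0214% on each side). Barhl1 is a homeobox transcription factor known from the developing nervous system. It read 1.44, 2.0, 2.02 and 1.78 at 20 min. On the same-RNA arrays it read 0.76 (1HG), 0.40 (3HG) and 0.16 (3HF), so the ranges did not overlap. The difference was 1.37 (SE 0.19, 95% interval 0.96 to 1.78, adjusted p = 0.0266, limma), or 2.58-fold. Its mean on the 4 h arrays in the fit (arrays 1 to 5) was -0.02, while array 6, a 4 h array left out of the fit, read 2.09. The array that carried labelling primers alone read 0.97. Hspbp1 encodes a cochaperone that binds Hsp70 and promotes nucleotide release. It read -1.42, -1.83, -1.09 and -1.45 at 20 min and -0.10, 0.18 and -0.25 with the same RNA, again without overlap. The difference was -1.39 (SE 0.19, 95% interval -1.81 to -0.97, adjusted p = 0.0266, limma). Its mean on arrays 1 to 5 was -0.28, and array 6 read -0.69. Without 1HG both stayed called, and the lowest adjusted p was 0.00678.

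These calls rest on few arrays. Leaving out any of the 4 h replicates 1 to 4, the 20 min replicates 2 or 4, or 3HG left 0 called (limma, lowest adjusted p between 0.0565 and 0.234). So did a fit on the 7 arrays alone, where the lowest adjusted p was 0.411. Over 25 alternatives the adjusted p of Barhl1 (limma) ran from 0.00273 to 0.894 and that of Hspbp1 from 0.00102 to 0.411. Barhl1 passed in 10 of the 25 and Hspbp1 in 12, and neither changed sign.

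At an unadjusted p below 0.05, 244 features differed (5.21%), and the 2 next to the threshold were Abcb11 and Crcp. Abcb11, the bile salt export pump, read 0.59, 0.78, 1.00 and 0.77 at 20 min and -0.11, -0.06 and 0.18 with the same RNA (difference 0.79, SE 0.15, adjusted p = 0.353, limma). Crcp, a subunit of RNA polymerase III, read near 0 at 20 min, from -0.04 to 0.06, and 0.59, 0.55 and 0.37 with the same RNA. Its difference was -0.48 (adjusted p = 0.706, limma), with a 20 min mean of 0.02. On arrays 1 to 5 at 4 h it averaged 0.32 (0.12 to 0.48), and array 6 read 2.33. Which group of arrays gave rise to the difference was not tested. The arrays at 20 min all lay above the same-RNA arrays for 167 features (3.57%) and all below for 161 (3.44%), or 7.01% in all.

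The other genes with the smallest unadjusted p all had an adjusted p of 0.801 (limma). On the positive side, Gdf10, a growth factor of the TGF-beta family, lay between 0.36 and 0.89 at 20 min and between -0.23 and 0.16 with the same RNA. Nell2, a secreted neural protein, lay between 0.24 and 0.81 and between -0.46 and -0.10. Dio1, the deiodinase that makes active thyroid hormone, read 0.39, 0.29, 0.96 and 0.26, against -0.14, -0.26 and 0.04. Rarb, a retinoic acid receptor, differed by 0.55, Tcf12, a helix-loop-helix factor, by 0.54, and Cbfb, the partner of Runx factors, by 0.44. Capn2, a calcium-dependent protease, differed by 0.40, Rasa3, a Ras GTPase activator, by 0.38, Nxph1, a neurexin ligand, by 0.35 and Dlc1 by 0.34. On the negative side, Kcnv1, a silent potassium channel subunit, read -1.47, -1.53, -2.34 and -2.36 at 20 min and -0.29, -0.86 and -0.74 with the same RNA. Plcg2, a phospholipase of immune receptors, read -0.18, -0.14, -0.36 and -0.07, against 0.86, 1.49 and 0.15, so the same-RNA arrays were the wider group. Rab10, a vesicle GTPase, lay between -0.54 and -0.41 at 20 min, while 1HG and 3HG read 0.45 and 0.49 and 3HF read -0.41. Gjb1, a gap junction connexin, differed by -0.59, Rimbp2, a presynaptic protein, by -0.53 and Polr2f, a shared RNA polymerase subunit, by -0.43. Stx8, an endosomal SNARE, differed by -0.46 (-0.30 without 1HG). It averaged -0.03 at 20 min and 0.43 with the same RNA, so the same-RNA arrays were the ones away from 0. Pxmp2, a peroxisomal membrane protein, differed by -0.40, Akr7a3, an aldehyde reductase, by -0.39 and Scaf4 by -0.29. Without 3HF, Plcg2 (adjusted p = 0.0395) and Rab10 (adjusted p = 0.0395, limma) passed with Hspbp1 and Kif1c, and Barhl1 did not.

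**Figure D4:**
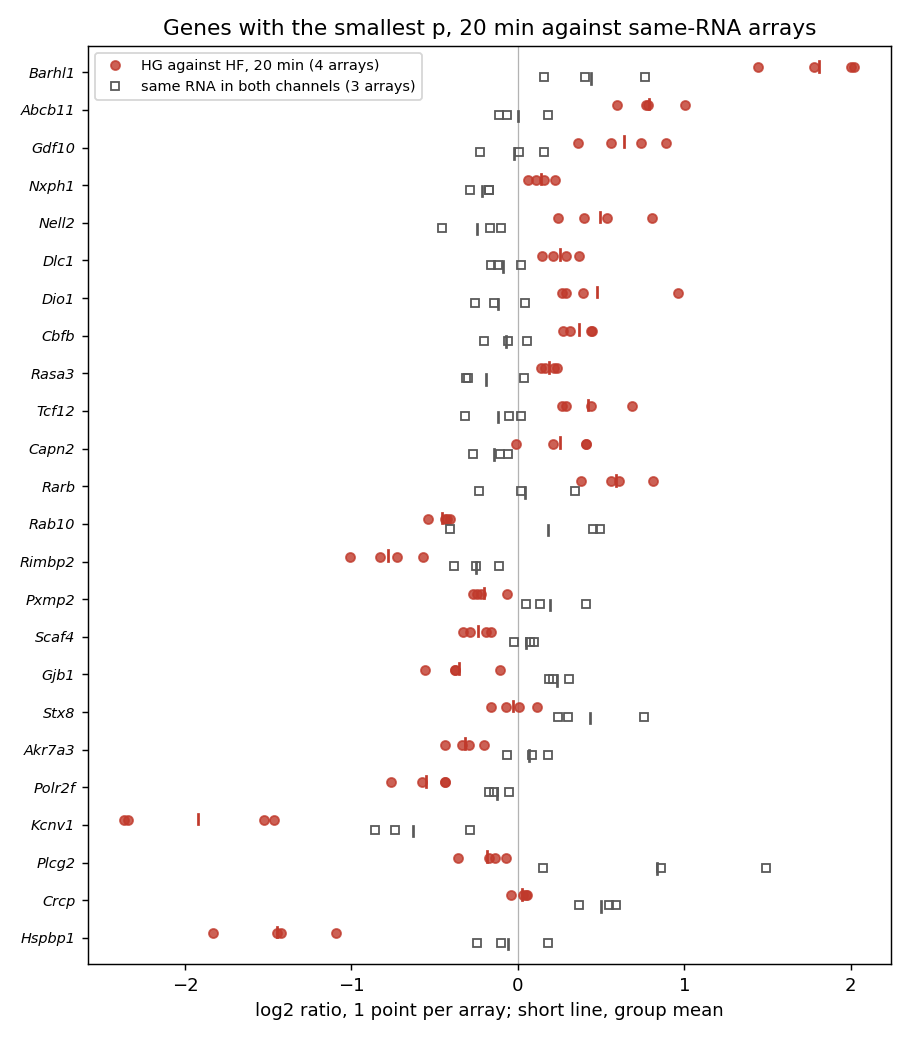
Log2 ratio of the 24 genes with the smallest p in the difference, 12 on each side; filled red circles are the 4 arrays at 20 min, open squares the 3 same-RNA arrays, and short lines the group means. Barhl1 (1.44 to 2.02) and Hspbp1 (-1.83 to -1.09) are the 2 that passed. For Crcp, Plcg2 and Stx8 the same-RNA arrays are the ones away from 0.

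Early-response genes did not move together in 1 direction. Of 31 measured transcription factors of the immediate early list, 0 were called by limma, and 17 lay above and 14 below 0 (50.6% of all features lay above). Only Zfp36 had an unadjusted p below 0.05, on the negative side, where 2.63% of all features did. The median of this list was 0.00626, beside 0.00215 over all features, and it ran from -0.054 (without replicate 4) to 0.0117 leaving out 1 array. For 21 feedback inhibitors the median was 0.0268 (-0.0126 to 0.115 leaving out 1 array) with 0 called and 0 at an unadjusted p below 0.05 (limma). For 28 secreted and inducible genes it was -0.00824 (-0.0276 to 0.00724) with 0 called and 2 at an unadjusted p below 0.05 (Nos2 and Il1a, limma), both positive, against 2.58% of all features on that side. Together the 80 genes ran from -0.391 to 0.458. Their 95% intervals, unadjusted, lay inside -1 to 1 for 78 of the 80, against 91.3% of all features. All features include the 301 where 1HG stood apart, so that share is not a like background. A change of 2-fold in all pairs alike lay outside the interval of most of the 80. The exceptions were Zfp36l1 and Cxcl1.

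Among the transcription factors, Nr4a1, an orphan nuclear receptor, was among the tightest: 0.24, 0.29, 0.25 and 0.23 at 20 min, against 0.48, 0.16 and 0.06 with the same RNA. The difference was 0.02 (95% interval -0.26 to 0.30), and 0.14 without 1HG. Junb, an AP-1 subunit, read 0.05, 0.24, 0.04 and 0.10 at 20 min and 0.23, -0.05 and -0.08 with the same RNA. Klf10, a TGF-beta inducible zinc finger factor, read 0.43, 0.17, 0.75 and 0.68, all above 0.04, -0.04 and 0.16 (difference 0.46, SE 0.22, adjusted p = 0.801, limma). Klf6, a related factor whose promoter is shown above, read 0.43, 0.33, 0.33 and 0.92, overlapping the same-RNA values of 0.10, 0.21 and 0.47. Crem, a cAMP-responsive factor, differed by 0.22 and Zfp36 by -0.39 (SE 0.15, adjusted p = 0.801, limma).

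Of the feedback genes, Dusp1, a MAP kinase phosphatase, read 0.29, -0.11, -0.27 and 0.45 at 20 min, around same-RNA values of -0.09, -0.12 and 0.08. Dusp5, a nuclear ERK phosphatase, read -0.08, 0.06, 0.38 and 0.61, against -0.04, 0.18 and -0.11. Socs3, an inhibitor of cytokine signalling, read 0.69 on replicate 4 and between -0.12 and 0.06 on the others. Socs2 differed by 0.29, and by -0.04 without 1HG, while Rgs1, a G protein regulator, differed by 0.21. Among the secreted and inducible genes, Nos2, the inducible nitric oxide synthase, lay between 0.04 and 0.20 at 20 min and read -0.77, -0.18 and 0.00 with the same RNA, so its difference of 0.42 was 0.20 without 1HG. Il1a, an alarm cytokine, read 0.33, 0.40, 0.34 and 0.61, above 0.21, 0.19 and 0.08 (difference 0.26, SE 0.12, adjusted p = 0.801, limma). Cxcl1, a neutrophil chemokine, differed by 0.45 and Plau, the urokinase, by -0.33 (-0.14 without 1HG). Against 0, 8 of the 80 genes passed at 20 min (Fosl2, Klf6, Klf10, Zfp36, Rgs2, Il1a, Vegfa and Pim3), or 10% against 8.2% of all features. On the same-RNA arrays Fosl2, Zfp36 and Vegfa passed, or 3.75% against 3.63%. Both shares are near those of all features. Rgs2, a G protein regulator, averaged 0.43 at 20 min and 0.35 with the same RNA, Pim3, a kinase, 0.49 and 0.37, and Fosl2, an AP-1 subunit, -0.69 and -0.56.

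**Figure D5:**
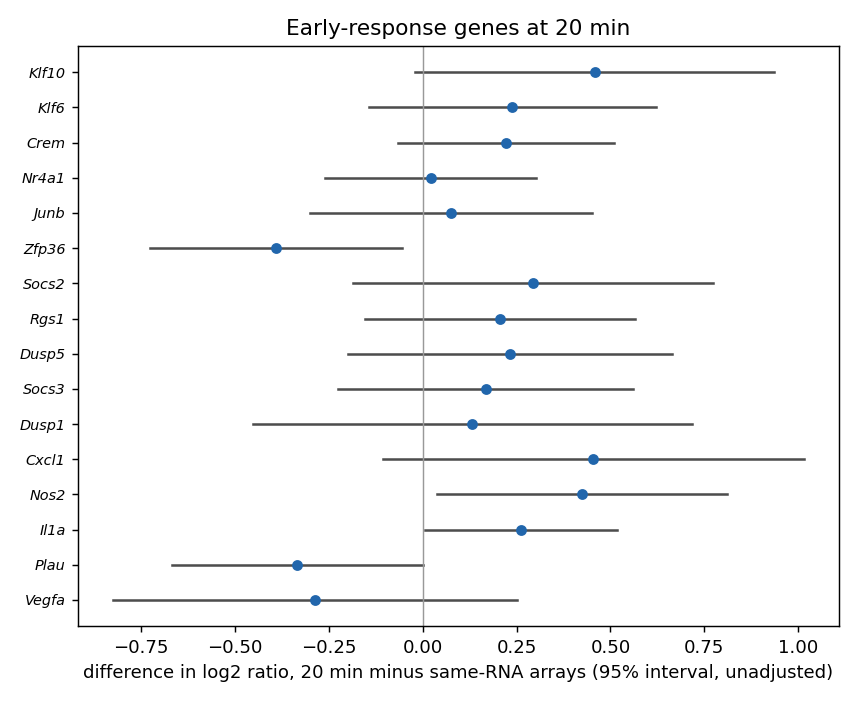
Difference in log2 ratio, 20 min minus same-RNA arrays, of 16 early-response genes with unadjusted 95% intervals (horizontal lines). Zfp36 (-0.39), Nos2 (0.42) and Il1a (0.26) have intervals that exclude 0 before adjustment, and none passes after it.

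Replicate 4 had the highest 20 min value for 34 of the 80 early genes (42.5%), against 25.9% of all features, a pattern noticed after the values were seen. Its share was 57.1% of the feedback list (12 of 21) and 45.2% of the transcription factors (14 of 31), but 28.6% of the secreted and inducible genes (8 of 28). Lists of other genes also had high shares, 55.6% for the Paneth markers (5 of 9) and 50% for the sugar transporters (5 of 10). The median of the feedback list was 0.289 on replicate 4 and between -0.0213 and 0.00999 on the other 3 arrays. Replicate 4 also held the most values listed at 0, 123, and the part of that in this result was not tested.

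Some genes read far from 0 on single 20 min arrays but in opposite directions, which a mean over the arrays does not show. Each pair was on 1 array, so a pair cannot be told apart from its array. Across the 4 arrays 11 features had a value below -1 on at least 1 array and above 1 on another. The same-RNA arrays 3HG and 3HF stayed within 0.523 of 0 for all 11, while 1HG read -1.88 for Hspb7. Values below -1 and above 1 were also found for 1 feature on the 5 arrays at 4 h (Reg3g). On the same-RNA arrays they were found for 2, both through 1HG (Rps6 and A4galt). These genes were chosen after their values were seen, and no test was made. Reg3g, an antibacterial lectin of the gut epithelium, read -0.18, -4.46, -3.26 and 3.38 at 20 min, and -0.22, 0.06 and 0.27 with the same RNA. Its relative Reg3b read 0.53, -2.52, -1.36 and 2.16, the same order of signs on replicates 2 to 4. Hspa1a, an inducible Hsp70, read 0.33, 0.55, 1.49 and -1.15, against 0.02, 0.24 and -0.01, so replicate 4 alone was negative. Reg3b and Hspa1a each average several probes, and those of Reg3b averaged 0.124 and -0.715 at 20 min. Zfp36l1, a relative of Zfp36 on the early list, read -0.72, 1.04, -1.47 and 3.26, against 0.24, 0.27 and 0.36. Cubn, the receptor for intrinsic factor and vitamin B12, read -1.54, 1.58, -2.30 and 1.04. For 5 of the 11 (Zfp36l1, Cubn, Hspb7, Ltbp1 and Slc18a1) replicates 1 and 3 were negative and replicates 2 and 4 positive. The others were Adh1c, an alcohol dehydrogenase, which read positive on replicate 1 and -1.87 on replicate 4, Naaladl1, a brush border peptidase, and Cxcr1, a chemokine receptor. Which arrays are high therefore differed between genes. Without replicate 4 the count was 4, and with quantile normalization it was 19.

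Other lists gave few differences. Of 24 heat shock proteins and cochaperones 1 was called (Hspbp1, 4.17% against 0.0427% of all features). This list and the homeobox list below were chosen with earlier results of these data known. A share that rests on 1 gene therefore says nothing of the class. In all, 8 lay above 0 and 16 below (66.7% against 49.4%), and the median was -0.0723 (-0.107 to -0.0345 leaving out 1 array). Dnajb9, a chaperone partner in the endoplasmic reticulum, read 0.71, 0.62, 0.50 and 0.44 at 20 min, above 0.14, 0.16 and 0.37 (difference 0.34, adjusted p = 0.801, limma). Hspb1 differed by -1.84, but 1HG read 5.27 while 3HG and 3HF read -0.06 and -0.09, and without 1HG the difference was -0.05. Of 30 listed homeobox genes 1 was called (Barhl1, 3.33% against 0.0427% of all features), and Isl2 differed by 0.47 (adjusted p = 0.801, limma). Dlx1, named above, was not on that list. Of 68 ribosomal proteins 0 were called by limma and 3 had an unadjusted p below 0.05, or 4.41% against 5.21% of all features. The median was -0.0398 (-0.0435 to -0.00928 leaving out 1 array), and for 8 of the 68 (11.8%) the arrays at 20 min all lay below the same-RNA arrays, against 3.44% of all features. Rpl35 lay between -0.49 and -0.29 at 20 min and between -0.03 and 0.21 with the same RNA.

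For the sugar genes, 0 of 10 transporters were called by limma and 0 had an unadjusted p below 0.05. Slc2a5 read -0.38, -0.01, -0.43 and -0.44 at 20 min and 0.16, -0.10 and -0.17 with the same RNA (difference -0.28, 95% interval -0.63 to 0.08, and -0.18 without 1HG). Slc5a1 read -1.08, -0.22, -0.58 and 0.33, Slc2a2 averaged -0.56 at 20 min and -0.50 with the same RNA, and Slc5a11, a sodium-coupled transporter of inositol, lay between 0.42 and 0.53 at 20 min and 0.09 and 0.42 with the same RNA. Of 6 genes of fructose and sorbitol metabolism, 23 of glycolysis, 9 of gluconeogenesis and 14 lipogenic targets, 0 were called by limma and 0 had an unadjusted p below 0.05. Their medians moved with single arrays. For fructose and sorbitol metabolism the median was -0.159, and -0.0709 without 1HG. For glycolysis it was 0.0147, and -0.0176 to 0.0642 leaving out 1 array. For gluconeogenesis it was 0.0531, and -0.0125 without 20 min replicate 1 or -0.0117 without replicate 4. For the lipogenic targets it was -0.0888, and -0.189 to -0.0368 leaving out 1 array. Khk, ketohexokinase, which commits fructose to metabolism, lay between -0.21 and 0.01 at 20 min and between -0.01 and 0.10 with the same RNA.

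Markers of the cell types that a piece of intestine can hold were also read, since bulk RNA cannot tell fewer cells of a type from less RNA per cell. Ratios carry no level, so the presence of a marker cannot be read from them. Of the 9 marker lists 0 genes were called by limma, and Muc2 and Clps, a pancreatic colipase, had an unadjusted p below 0.05. The difference of Clps was -0.928, and -1.22 to -0.425 leaving out 1 array. All 9 Paneth markers lay below 0 (median -0.314, and -0.0929 without 20 min replicate 2), where 49.4% of all features did, but their list medians on the 4 arrays ran from -0.626 to 0.332 and Reg3g and Reg3b are the genes with opposed pairs described above. Defa5, a Paneth cell defensin, read -2.36, -0.63, -0.61 and -1.31, below -0.56, -0.53 and -0.14 (adjusted p = 0.801, limma). The median of 13 enterocyte markers was -0.058, and 0.0421 without 20 min replicate 1. Leaving out 1 array also turned the sign of the medians of 6 smooth muscle markers (-0.0351, range -0.121 to 0.0154) and of 16 nerve and glia markers (0.0128, range -0.0361 to 0.0464). The other medians kept their sign but moved: -0.225 for 5 erythrocyte markers (-0.0873 without replicate 3), -0.104 for 8 pancreatic acinar markers (-0.047 without 3HG), -0.0615 for 6 immune markers (-0.0097 without replicate 1) and -0.0874 for 12 enteroendocrine markers (-0.0432 without 1HG). Only 2 goblet markers were measured, and Muc2 rested on 1HG (-2.34). Their part in the results above was not tested.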

How the data were processed

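The authors deposited 1 table of log ratios, taken here as log2 values, with 4952 probes and 14 arrays. The scanner, background correction, normalization, log base and ratio direction were not given in the sources used here, and signal intensities were not analysed, so dim probes were not set apart. Each array was centred on its median. Symbols came from the platform annotation (4426 probes with 1, 2 with several, 524 with none), and 4371 Entrez identifiers matched the GRCr8 gene table. Probes of 1 symbol were averaged (191 genes), which gave 4682 features. One limma fit (3.58.1, R 4.3.3, lmFit and eBayes) held 12 arrays in 3 groups, arrays 1 to 5 (4 h), 7 to 10 and 11 to 13. It had 9 residual and 2.84 prior degrees of freedom. Array 6 was left out because its dyes were taken as likely swapped after an earlier look at these data. The primer array was left out as well. Calls needed an adjusted p (Benjamini-Hochberg) below 0.05. Named genes are the 12 smallest p per sign in the difference, 6 per sign against 0 in each group, and up to 4 of each list. Members and lists were chosen with earlier results of these data known. The median 95% interval of a difference reached 0.344 to either side, and the number of arrays limits the precision. The fit was run on simulated data with planted differences and independent normal noise. The simulation held no array that stands apart as 1HG does, no listed zeros and no RNA shared between arrays. It therefore cannot show how these affect the calls. Alternatives were tried for scaling, probes, variance estimate, arrays and zeros.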

Additional observations from a re-analysis of the deposited data

Results flagged for a closer look

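Of 86 genes checked, 4 had 1 array at 20 min far from the other 3, and chance flags about 1 in 20 groups. These arrays were the highest for Klf6 (0.921) and Slc2a5 (-0.0146) and the lowest for Map2k5 (-0.112), a kinase of the ERK5 pathway, and Trip10 (0.831).

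The ratio at 20 min differed from that at 4 h for 5 of the named genes by limma, among 28 features called (0.598% of 4682). The differences, 20 min minus 4 h, were 1.83 for Barhl1 (adjusted p = 0.00022), -1.17 for Hspbp1 (adjusted p = 0.0132), -0.746 for Akr7a3, -0.823 for Rimbp2 and -1.97 for Slc2a5. Neither mean in this comparison uses the same-RNA arrays, though they enter the fit's estimate of the spread, and 1 direction of the ratio is assumed at both times. The 20 min values that picked out Barhl1 and Hspbp1 are used again here, so passing is not separate support for them. Leaving out each array in turn, Barhl1 stayed called in 12 of 12 fits and Hspbp1 in 10 of 12. Array 6, a 4 h array in none of these fits, read 2.09 for Barhl1 and -0.69 for Hspbp1.

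The array that carried labelling primers alone read beyond 0.538, 3 times its SD, for Barhl1 (0.969), Zfp36 (0.871), Rgs2 (0.596) and Kidins220 (0.562). All 4 genes were positive on every array at 20 min and with the same RNA.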

How the results depend on the processing

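The difference between 20 min and the same-RNA arrays called 2 features, and 1 with arrays scaled to 1 spread. It called 0 (limma, against 244 at an unadjusted p below 0.05 in the main setting) with only the 7 arrays, with trended variance, with array 6 averaged in (either sign) and with the replicate number as a block. Leaving out 1 array at a time gave 0 to 4. Tested against 0 instead, 384 were called. For 20 min against 0 the count was 233 with array 6 averaged in, 243 with the replicate block and 202 to 460 leaving out 1 array. For the same-RNA arrays it was 297 scaled, 98 trended, 104 with array 6 averaged in, 86 with the replicate block and 62 to 174 leaving out 1 array. Numbers were checked between 20 min and 4 h alone, where they do not pair the arrays (r of same-numbered deviations -0.086, 0.134, -0.0405 and 0.04); by their labels the same-RNA arrays share RNA numbers 1 and 3 with the 4 h pairs. Median correlations with the 20 min arrays by Spearman were 0.35 (each other), 0.382 (3HF), 0.296 (3HG) and 0.223 (1HG), and by Pearson over probe numbers above 750 and up to 4500 they were 0.488 (3HG) and 0.457 (1HG). Signs turned against 0 for Crcp (0.0242), Zfp36 (0.687), Hspe1 (0.094), Rpl41 (-0.0373) and Gcg (0.413), and without 1HG for Socs2 (-0.0398), Hspe1 (0.0759) and Gcg (0.534). They turned with the replicate block for Socs3 (-0.011), Nr4a1 (-0.0418) and Junb (-0.0698), without 20 min replicate 4 for Socs3 (-0.0126), and for Nr4a1 when scaled (-0.0158) or without 3HG (-0.0146) or 3HF (-0.0654). Leaving out 1 array gave ranges of -0.0398 to 0.523 (Socs2), -0.0126 to 0.257 (Socs3), -2.64 to 0.0759 (Hspe1), -7.79 to 0.534 (Gcg) and -0.0654 to 0.144 (Nr4a1). Vegfa on the same-RNA arrays was 0.0321 without the end probes. Of 2225 gene values 2160 kept sign and side of the threshold. Many of these belong to genes far from the threshold, so the count says little of the 2 calls. In the difference, Barhl1 passed in 10 of 25 alternatives and Hspbp1 in 12 of 25. Apart from the fits with fewer arrays, the causes were not tested.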
